A study of Mus musculus with 16 samples.

Results

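The genes described here are the keratins, the desmosome genes and a set of further genes of stratified epithelium on the array: 65 of the 16537 gene symbols in the deposited table, read by 87 of its 24040 probes. A gene belongs to the set when its symbol names a keratin, a desmocollin, a desmoglein, a plakophilin, a small proline-rich protein or a clade B serpin followed by its number, or when it is one of 13 single genes (Krtdap, Sbsn, Sfn, Perp, Trim29, Dsp, Aqp3, Tcfap2c, Ckmt1, Spint1, Spint2, Prom2 and Rbm35a). The set was drawn up because several of these genes read higher in pericytes of endosialin-knockout hosts, so the contrast between knockout and wild-type pericytes is a description here: the fit's calls are counted, and no support is drawn from them. By family the set holds 12 type II keratins, 9 type I keratins, 13 desmosome genes with Perp and Dsp among them, 6 small proline-rich genes, 14 clade B serpins and 11 other single genes. The label given to the set fits its symbols, but the set is defined by names, and several members are not restricted to epidermis.

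Keratins are the intermediate filament proteins of epithelial cells, and each filament pairs a type I with a type II keratin. Krt5 and Krt14 form the pair of basal cells of stratified epithelia, Krt6a, Krt6b, Krt16 and Krt17 are typical of hair follicle and of wounded or activated epidermis, Krt1 and Krt10 of suprabasal epidermis, and Krt8 and Krt18 of simple epithelia. Desmosomes anchor these filaments at cell junctions through cadherins (desmogleins, desmocollins), plakophilins and desmoplakin, and the small proline-rich proteins are crosslinked into the cornified envelope at the skin surface. Pericytes, the mural cells of small vessels, and endothelial cells do not form stratified epithelium.

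In the study, BALB/c Ub-GFP mice received cells of the mouse mammary carcinoma line 67NR in a mammary fat pad. The hosts were females of 6 to 8 weeks and were either wild-type or knockout for endosialin, a membrane glycoprotein of pericytes and fibroblasts encoded by Cd248. Tumours grew over 2 to 4 weeks to about 10 mm, and pericytes and endothelial cells were taken from them by flow sorting and used without culture. Crossing the 2 genotypes with the 2 cell types gave 4 groups of 4 arrays. Every host carried the Ub-GFP strain background and the same tumour line, the hosts are described as knockout as a whole, and the labels name no deletion in the tumour cells. No source used here names the markers of the sorting gates or how many mice an array stands for, and the p-values therefore cover array-to-array spread that may be partly technical.

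Values are log2 intensities of bead arrays as deposited, each array with a median of 7.18 to 7.21 and values from 6.58 to 14.52, so readings near 6.7 to 7.0 lie at the bottom of the scale. Cd248 read 11.19, 10.75, 10.85 and 11.12 in wild-type pericytes and 7.21, 7.1, 7.09 and 6.96 in knockout pericytes, and at most 7.44 in endothelial cells. Over 10 endothelial markers the mean was 6.97 to 7.26 on pericyte arrays and 9.29 to 9.44 on endothelial arrays, and the mean of 10 pericyte markers was 8.52 to 9.84 on pericyte arrays and 7.94 to 8.24 on endothelial arrays. Not all of these pericyte markers separated the cells. Between wild-type pericytes and endothelial cells 6 differed by 1.18 to 3.2, Kcnj8, Abcc9 and Acta2 by 0.02, 0.27 and 0.35, and Mcam by -1.27. Of the 65 members, 37 passed the filter on dim probes (above the median of the own array on at least 4 of 16 arrays) and entered the fit over 10426 genes, and 28 did not. The filter favours genes that are high in 1 group: 22 of the 37 were above the median on fewer than 4 arrays outside the knockout pericytes.

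Most of the set was quiet outside the pericytes. The number of the 65 members that read above the array median was 8 to 11 on each of the 8 endothelial arrays. On wild-type pericyte arrays 1 to 4 it was 12, 11, 34 and 20, and on knockout pericyte arrays 1 to 4 it was 18, 38, 43 and 42. The arrays with many members above the median were thus knockout replicates 2, 3 and 4 and, among the wild-type pericytes, replicate 3, while knockout replicate 1 lay within the wild-type range. More cells that make these RNAs and more of the RNAs per cell cannot be told apart in sorted bulk RNA.

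**Figure D1:**
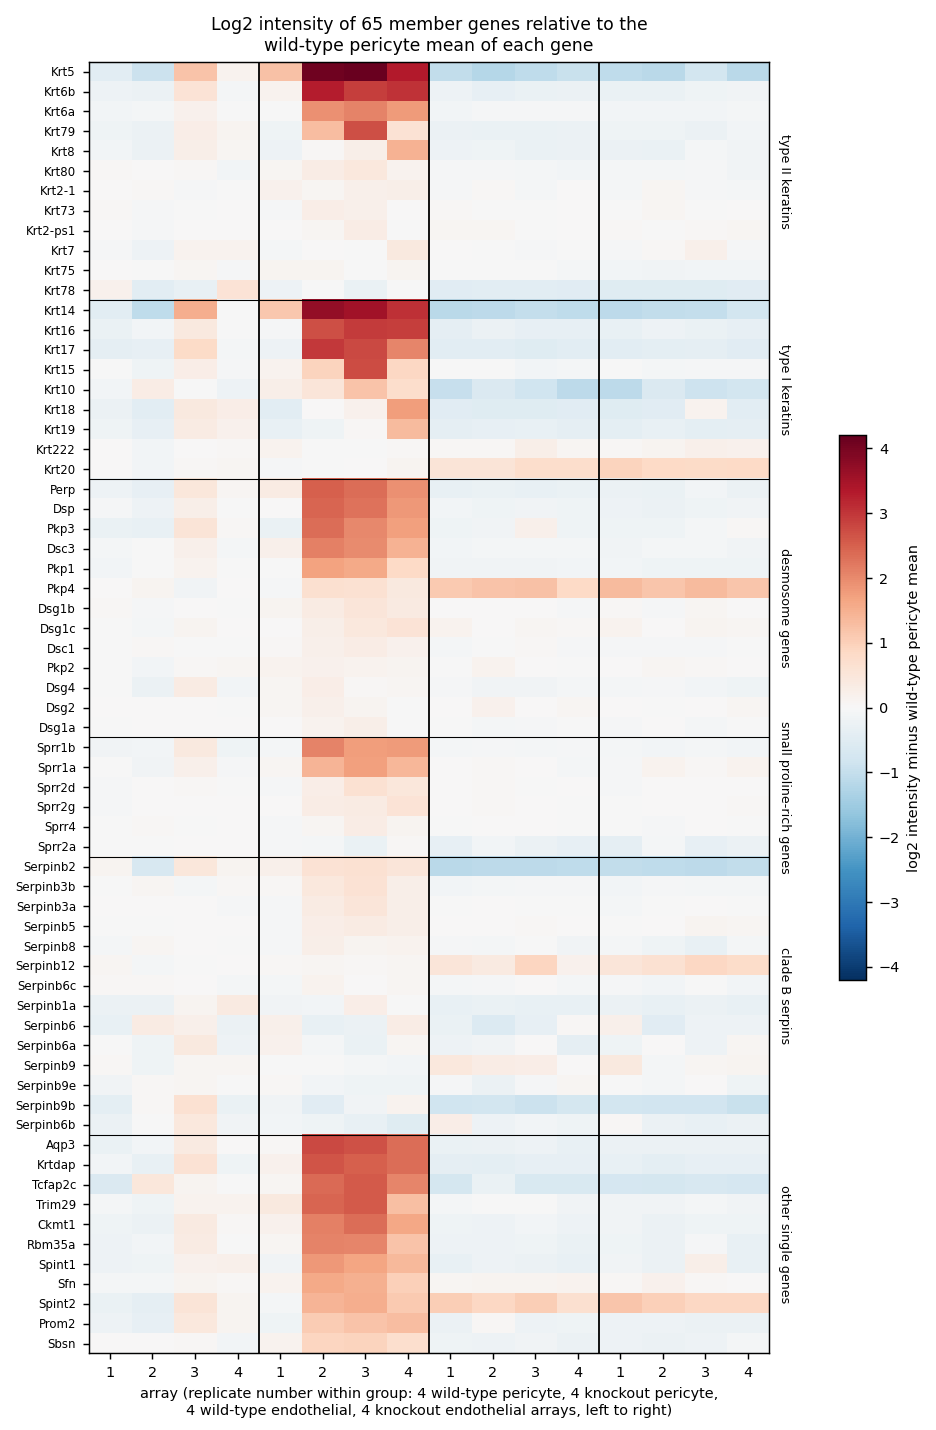
Log2 intensity of each of the 65 members (rows, by family) on each of the 16 arrays (columns, by group and replicate), as the difference from the gene's own wild-type pericyte mean, with red for higher and blue for lower. The red block lies on knockout pericyte replicates 2, 3 and 4, where Krt5 is 4.09, 4.15 and 3.34 above that mean, and Pkp4, Krt20, Serpinb12 and Spint2 are red on the endothelial arrays.

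The basal keratin pair had the widest differences of the set. Krt5 read 7.45, 6.99, 9.12 and 8.07 on the wild-type pericyte arrays, 9.15, 12, 12.06 and 11.25 on the knockout pericyte arrays, and between 6.72 and 7.14 on the 8 endothelial arrays. All 4 knockout pericyte arrays lay above all wild-type ones, although knockout replicate 1 exceeded wild-type replicate 3 only narrowly. The mean was 7.91 ± 0.92 (SD, n = 4) in wild-type and 11.12 ± 1.36 (SD, n = 4) in knockout pericytes, a log2 difference of 3.21 or 9.25-fold. With single pericyte arrays left out it ran from 2.90, without knockout replicate 3 or wild-type replicate 2, to 3.86, without knockout replicate 1.

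Krt14, the partner of Krt5, read 7.43, 6.8, 9.38 and 7.85 in wild-type pericytes, 9.01, 11.56, 11.39 and 10.92 in knockout pericytes, and 6.74 to 7.08 in endothelial cells. Here the groups overlapped, since knockout replicate 1 was below wild-type replicate 3. Knockout pericytes averaged 10.72 ± 1.17 and wild-type pericytes 7.87 ± 1.1 (SD, n = 4 each), a log2 difference of 2.85 or 7.23-fold. With single pericyte arrays left out it ran from 2.50, without wild-type replicate 2, to 3.42, without knockout replicate 1. Perp, a tetraspan membrane protein of desmosomes, read 6.86, 6.74, 7.55 and 7.18 in wild-type pericytes and 7.43, 9.59, 9.42 and 8.99 in knockout pericytes, with 6.77 to 6.97 in endothelial cells. Knockout replicate 1 again fell inside the wild-type span, and the difference in means was 1.78, or 3.43-fold.

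**Figure D2:**
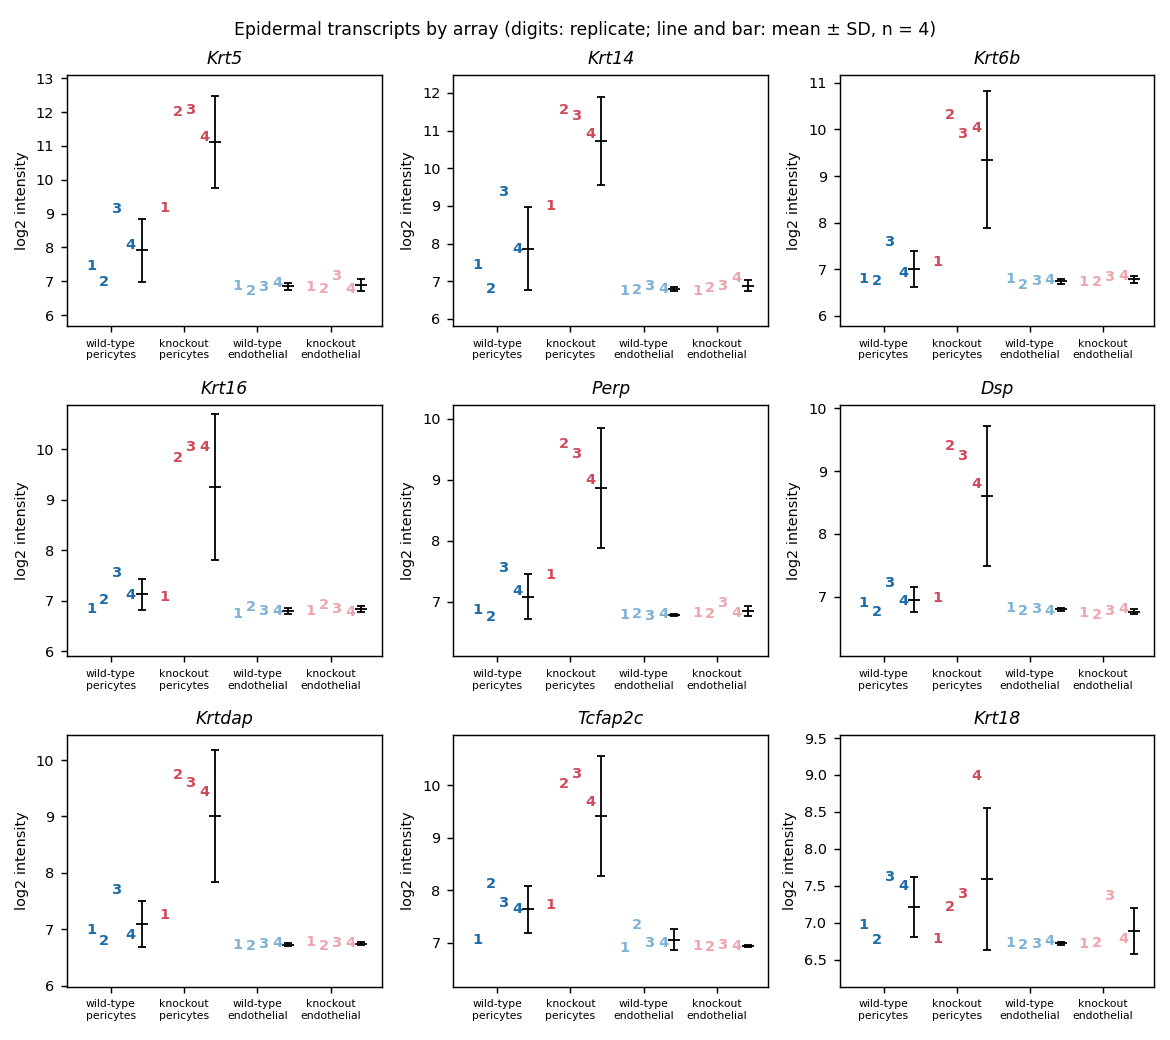
Log2 intensity of named epidermal members on each array, by group, with the digit giving the replicate and the bar the mean ± SD (n = 4). Krt5 spans 6.99 to 9.12 in wild-type pericytes and 9.15 to 12.06 in knockout pericytes, and knockout replicate 1 is the lowest knockout pericyte array in each of the 9 panels, whose vertical axes differ.

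The keratins of activated epidermis and hair follicle followed the same arrays from a lower start. Krt6b read 6.79, 6.75, 7.58 and 6.92 in wild-type and 7.16, 10.3, 9.9 and 10.04 in knockout pericytes, a difference of 2.34 or 5.07-fold. Krt16, a type I keratin that pairs with Krt6, read 6.83, 7.01, 7.54 and 7.11 against 7.08, 9.82, 10.05 and 10.04, a difference of 2.13 or 4.36-fold. In both genes knockout replicates 2 to 4 stood above every other array of the study, and knockout replicate 1 lay among the wild-type pericytes. Krt17 read 6.83, 6.84, 7.99 and 7.13 in wild-type and 6.97, 10.16, 9.97 and 9.25 in knockout pericytes, a difference of 1.89 or 3.7-fold. Krt6a read 6.78, 6.81, 7.06 and 6.87 against 6.86, 8.81, 8.96 and 8.68, a difference of 1.44 on the probe shown and 1.5 on its other probe. Krt6a did not enter the fit, because it was above the median on only 3 arrays, and its probes and that of Krt6b read genes of near-identical sequence, so which copy gave the signal is uncertain.

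Krt15 and Krt79, keratins known from hair follicle, peaked on a single array. Krt15 read 6.84, 6.68, 7.13 and 6.8 in wild-type and 7.02, 7.79, 9.6 and 7.74 in knockout pericytes, a difference of 1.17. Krt79 read 6.77, 6.72, 7.24 and 7.07 against 6.76, 8.25, 9.66 and 7.56, a difference of 1.11. Knockout replicate 3 was the highest array for both genes, by more than 1 log2 unit over knockout replicate 2. The keratins of simple epithelia, shown after their values were seen, peaked elsewhere. Krt18 read 6.97, 6.77, 7.62 and 7.5 in wild-type and 6.78, 7.22, 7.39 and 8.98 in knockout pericytes, and Krt8 reached 8.56, Krt19 8.43 and Krt7 7.33 on the same knockout replicate 4. On that array the mean of Krt7, Krt8, Krt18 and Krt19 was 8.32, against 6.76 to 7.37 on the other 7 pericyte arrays. Knockout replicates 2 and 3, the highest arrays for Krt5 and Krt14, were at 7.05 and 7.19 and so inside the wild-type span.

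Krt10, the suprabasal type I keratin, was above the median on every pericyte array of both genotypes. It read 7.86, 8.31, 7.98 and 7.78 in wild-type and 8.24, 8.49, 9.19 and 8.73 in knockout pericytes, a difference of 0.68 or 1.6-fold with overlap between the groups. Its epidermal partner, listed on the array as Krt2-1 and now named Krt1, read 6.77 to 6.87 in wild-type and 6.9 to 7.07 in knockout pericytes and was above the array median on 0 arrays. Over all 21 keratins the pericyte difference ran from -0.13 for Krt78 to 3.21 for Krt5, with 8 at 1 or more. The medians were 0.2 over the 12 type II and 0.68 over the 9 type I keratins.

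All 13 desmosome genes had a positive difference between knockout and wild-type pericytes, from 0.09 for Dsg1a to 1.78 for Perp, with a median of 0.34 and 5 at 1 or more. Dsp, the plakin that links keratin filaments to the desmosome, read 6.91, 6.76, 7.22 and 6.94 in wild-type and 6.98, 9.4, 9.24 and 8.79 in knockout pericytes, a difference of 1.64 or 3.13-fold, with 1.46 and 0.64 on its other probes. Pkp3, an armadillo protein of the desmosomal plaque, read 6.89, 6.86, 7.74 and 7.24 against 6.91, 9.53, 9.21 and 8.9, a difference of 1.45 or 2.73-fold. In both genes knockout replicates 2 to 4 stood above the other 13 arrays. Dsc3, a desmosomal cadherin of basal cells, read 6.8, 6.84, 7.07 and 6.78 against 7.08, 8.99, 8.86 and 8.32, a difference of 1.44. Pkp1 read 6.89, 6.97, 7.15 and 6.97 against 6.99, 8.69, 8.57 and 7.84, a difference of 1.03, and like Dsc3 it was above the median on only 3 arrays and was not tested. The desmogleins and Dsc1, the cadherins of the upper layers among them, stayed near the bottom of the scale: Dsg1b reached 7.29, Dsg1c 7.44, Dsg2 7.03, Dsg4 7.25 and Dsc1 7.12 at most on the probes shown, and another Dsg2 probe averaged 7.11 in knockout pericytes with a difference of 0.32. Dsg1a, Dsg1b and Dsg1c are close copies and their probes may share targets.

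Among the small proline-rich genes, precursors of the cornified envelope, Sprr1b read 6.74, 6.75, 7.3 and 6.71 in wild-type and 6.79, 8.95, 8.62 and 8.66 in knockout pericytes, a difference of 1.38 or 2.6-fold. Sprr1a read 6.92, 6.79, 7.16 and 6.91 against 7.04, 8.38, 8.66 and 8.33, a difference of 1.16, and did not enter the fit. Both were low on knockout replicate 1 and high on replicates 2 to 4. Sprr2d, Sprr2g and Sprr4 differed by 0.35, 0.31 and 0.12, and none exceeded 7.41. Sprr2a behaved otherwise: it read 9.75 to 10.16 on all 16 arrays, and its pericyte difference was -0.09. Whether its probe reads Sprr2a alone could not be checked, so which gene gave the signal is uncertain.

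Of the 11 other single genes, all had a positive pericyte difference, from 0.67 for Sbsn to 1.96 for Aqp3, with a median of 1.36. Aqp3, the water and glycerol channel of basal keratinocytes, read 6.89, 7.04, 7.55 and 7.18 in wild-type and 7.22, 9.94, 9.84 and 9.5 in knockout pericytes, a 3.9-fold difference. Krtdap, a secreted protein of differentiating keratinocytes, read 6.99, 6.79, 7.7 and 6.9 against 7.26, 9.73, 9.6 and 9.44, a 3.77-fold difference. Both had knockout replicate 1 inside the wild-type range and far below the other knockout arrays. Tcfap2c, now Tfap2c, an AP-2 transcription factor, read 7.05, 8.12, 7.76 and 7.64 against 7.73, 10.02, 10.22 and 9.68, a difference of 1.77 (0.58 on its other probe). Trim29, a tripartite-motif protein of squamous epithelium, read 6.81, 6.72, 7.04 and 7.05 against 7.31, 9.35, 9.49 and 8.17, a difference of 1.67 (1.07 on its other probe). Trim29 was the one of these 4 whose pericyte groups did not overlap, since even knockout replicate 1 exceeded every wild-type array. Ckmt1, a mitochondrial creatine kinase, read 6.76, 6.69, 7.33 and 7.0 against 7.14, 9.07, 9.28 and 8.56, a difference of 1.57, while its other probe differed by 0.06. Rbm35a, now Esrp1, the epithelial splicing regulator, read 6.87, 6.95, 7.42 and 7.04 against 7.14, 9.16, 9.12 and 8.28, a difference of 1.36. Spint1, a Kunitz inhibitor of epithelial serine proteases, read 6.87, 6.89, 7.26 and 7.29 against 6.92, 8.89, 8.75 and 8.45, a difference of 1.18. In each of the 3, knockout replicates 2 to 4 were above all wild-type arrays and replicate 1 was not. Sfn, the 14-3-3 protein of epithelia, read 7.05, 7.04, 7.26 and 7.2 against 7.27, 8.74, 8.63 and 8.14, a difference of 1.05 with groups just parted, and 0.48 on its other probe. Prom2, a membrane glycoprotein of epithelial protrusions, read 6.8, 6.64, 7.45 and 7.1 against 6.81, 8.06, 8.21 and 8.28, a difference of 0.84 on this probe and 0.21 on the other. Sbsn, a secreted epidermal protein, read 7.15 to 7.32 in wild-type and 7.4 to 8.19 in knockout pericytes, a difference of 0.67, with 0.42 and 0.43 on its other probes.

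The clade B serpins, intracellular protease inhibitors, had smaller pericyte differences, from -0.28 to 0.49 with a median of 0.02 on the probes shown, and 7 of 14 were positive. The RefSeq annotation places 6 of them on chromosome 1 and 8 on chromosome 13. Those on chromosome 1 (Serpinb12, Serpinb2, Serpinb3a, Serpinb3b, Serpinb5 and Serpinb8) were all positive, from 0.06 to 0.49 with a median of 0.23, and those on chromosome 13 ran from -0.28 to 0.04 with 1 of 8 positive. Grouping by chromosome was chosen after these values were seen. Serpinb5, the epithelial serpin also called maspin, read 6.69 to 6.75 in wild-type and 6.68, 6.98, 7.06 and 6.96 in knockout pericytes. Serpinb3a read 6.7, 7.1, 7.24 and 6.99 and Serpinb3b 6.92, 7.33, 7.5 and 7.14 in knockout pericytes, and the other Serpinb3b probe differed by 0.63. These 3 were low on knockout replicate 1 and higher on replicates 2 to 4, near the bottom of the scale. Serpinb3a and Serpinb3b are close copies whose probes may share targets. Serpinb6a read 9.24 to 10.02 on all 16 arrays, and the symbols Serpinb6 and Serpinb6a now name 1 gene.

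The members with the widest differences shared an ordering of the arrays, and others shared it in part. Krt8 and Krt18 also had knockout replicate 1 lowest of the knockout pericytes and wild-type replicate 3 highest of the wild type. Their knockout replicates 2 and 3 lay below wild-type replicate 3. For 23 of the 65 members the knockout pericyte mean was at least 1 log2 unit above the wild-type one, for 27 it was at least 0.5 above, and for 0 it was 0.5 or more below. At that edge, Sfn at 1.05 and Pkp1 at 1.03 were inside and Spint2 at 0.99 and Prom2 at 0.84 outside. In all 23, knockout replicate 1 was the lowest knockout pericyte array and replicates 2, 3 and 4 were above every wild-type pericyte array. Choosing the 23 by a difference of at least 1 favours knockout arrays that stand above the wild type. In 19 of them knockout replicate 1 was below wild-type replicate 3, and in 20 wild-type replicate 3 was the highest wild-type array. Against the wild-type pericyte mean of each gene, the median over the 23 was -0.19, -0.19, 0.35 and -0.01 on the wild-type arrays and 0.09, 2.35, 2.34 and 1.78 on the knockout arrays. On knockout replicate 1 the 23 ranged from -0.27 for Pkp3 to 1.24 for Krt5.

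In the fit over all 10426 genes, 13 of the 37 tested members were called higher in knockout pericytes (limma, Benjamini-Hochberg) and 0 lower, where 0.307% of all genes were called higher, 0.00959% lower and 0.317% in either direction. Because this contrast chose the set, nothing is read from that count or share. The call list depended on single arrays. Without knockout pericyte replicate 1 it held 23 members, without knockout replicate 2 or 3 it held 0, and without knockout replicate 4 it held 3. Without wild-type pericyte replicates 1, 2, 3 and 4 it held 1, 1, 9 and 2. Without any 1 of the endothelial arrays, which share the estimate of the spread, it held 3 (wild-type replicate 4, knockout replicates 1, 3 and 4) or 8 (the other four). The pericyte groups did not overlap for 4 tested members (Krt5, Sbsn, Sfn and Trim29), all higher in knockout, where 1.38% of all genes parted in that direction.

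The promoters of members that moved together, and of members that differed between cell types below, were read from the RefSeq table of genome build GRCm38.p6, which held 38 of the members. Each window is the 250 bases before the annotated start, written 5′ to 3′ on the gene's strand, and capitals mark TATAAA, the core of the TATA box, and TGANTCA, the AP-1 site. Krt5 is shown for its difference in pericytes, Krtdap, Sprr1a and Sprr1b as members at or above 1 log2 unit that hold both motifs, and Serpinb2 and Krt20 as genes that differed between wild-type cell types in opposite directions.
Krt5, chr15:101712906-101713155, minus strand: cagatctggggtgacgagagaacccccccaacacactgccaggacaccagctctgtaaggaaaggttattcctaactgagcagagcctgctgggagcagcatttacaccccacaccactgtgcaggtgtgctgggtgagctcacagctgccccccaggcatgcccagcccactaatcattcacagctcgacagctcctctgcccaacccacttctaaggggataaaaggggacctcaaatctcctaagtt
Krtdap, chr7:30787655-30787904, plus strand: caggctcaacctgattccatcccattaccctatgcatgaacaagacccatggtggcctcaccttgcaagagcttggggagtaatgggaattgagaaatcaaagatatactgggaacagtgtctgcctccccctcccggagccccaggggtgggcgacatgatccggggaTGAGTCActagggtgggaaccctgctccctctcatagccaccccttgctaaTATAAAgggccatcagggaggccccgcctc
Sprr1a, chr3:92485882-92486131, minus strand: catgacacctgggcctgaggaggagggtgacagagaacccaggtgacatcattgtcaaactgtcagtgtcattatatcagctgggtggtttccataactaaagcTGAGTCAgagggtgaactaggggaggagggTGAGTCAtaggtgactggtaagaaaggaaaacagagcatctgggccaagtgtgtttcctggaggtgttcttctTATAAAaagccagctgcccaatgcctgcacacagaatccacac
Sprr1b, chr3:92438780-92439029, minus strand: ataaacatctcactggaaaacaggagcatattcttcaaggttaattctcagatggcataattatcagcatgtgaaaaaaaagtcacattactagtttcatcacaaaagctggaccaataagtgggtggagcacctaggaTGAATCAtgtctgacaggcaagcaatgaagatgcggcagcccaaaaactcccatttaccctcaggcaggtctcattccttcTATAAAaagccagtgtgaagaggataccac
Serpinb2, chr1:107511173-107511422, plus strand: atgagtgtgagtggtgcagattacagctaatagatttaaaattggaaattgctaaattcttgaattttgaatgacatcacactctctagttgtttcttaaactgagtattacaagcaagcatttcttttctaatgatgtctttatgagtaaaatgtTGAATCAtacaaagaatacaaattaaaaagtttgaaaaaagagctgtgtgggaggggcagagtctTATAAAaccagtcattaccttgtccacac
Krt20, chr11:99438154-99438403, minus strand: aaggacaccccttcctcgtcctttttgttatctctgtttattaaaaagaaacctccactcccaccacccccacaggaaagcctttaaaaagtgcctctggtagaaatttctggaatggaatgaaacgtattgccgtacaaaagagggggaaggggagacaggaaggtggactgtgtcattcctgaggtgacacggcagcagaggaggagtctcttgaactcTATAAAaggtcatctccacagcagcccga

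The Krt5 window held no match to either motif. TATAAA began 30 bases before the start in Krtdap and Sprr1b, 43 in Sprr1a, and 29 in Serpinb2 and Krt20. TGANTCA, which reads alike on both strands, occurred at 2 places in Sprr1a and at 1 in Krtdap, Sprr1b and Serpinb2. With both strands searched, TATAAA was in 13 of the 38 member windows (34.2%) and in 12.4% of all 32851 windows, and TGANTCA was in 9 (23.7%) and in 6.7%. GCCNNNGGC, the AP-2 site, also the same on both strands, was in 7 (18.4%) and in 13.7%. Member windows were counted 1 a gene, while the 32851 were not reduced in that way, so the shares are not strictly alike. Of the 23 members with a pericyte difference of at least 1, 11 had a window. Of these 11, 5 held TATAAA, 3 TGANTCA and 2 GCCNNNGGC. No printed match overlapped another. A match is a run of letters and not a measured site.

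The knockout and wild-type endothelial arrays did not enter the choice of the set. For much of it they offered little to compare, since 22 of the 37 tested members were above the median on fewer than 4 arrays outside the knockout pericytes and many lay at the bottom of the scale in endothelial cells. None of the 37 tested members was called between knockout and wild-type endothelial cells (limma, 0 of 37 at an adjusted p under 0.05, 1 at an unadjusted p under 0.05), where 0.00959% of all genes were called, 1 of 10426. The member at an unadjusted p of 0.0118 by limma was Krt20, a keratin known from intestine and urothelium, at 7.34, 7.34, 7.53 and 7.52 in wild-type and 7.74, 7.64, 7.59 and 7.64 in knockout endothelial cells. Its knockout arrays lay above its wild-type arrays by a mean of 0.22 (95% interval 0.06 to 0.39, adjusted p = 1.0), and 0.863% of all genes parted in that direction. For Krt5 the endothelial difference was 0.03 (95% interval -0.99 to 1.06), for Krt14 0.08 (-0.92 to 1.08) and for Perp 0.06 (-0.6 to 0.72). Over the 37 members the median difference was 0.02, and over all genes tested it was 0.0. The limits of the intervals reached from -0.99 to 1.08, with a spread estimated over all 4 groups, knockout pericytes included.

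The 23 members stayed at 6.66 to 7.41 on every endothelial array, and 57 of the 65 members were below 7.5 on all 8. Side by side, the knockout difference of Krt5 was 3.21 in pericytes and 0.03 in endothelial cells, that of Krt14 2.85 and 0.08, and that of Krt6b 2.34 and 0.04. For Krt16 the values were 2.13 and 0.03, and for Aqp3 1.96 and 0.02. The fitted difference between the knockout effects called 0 of 37 members (limma, 21 at an unadjusted p under 0.05), where 0.0192% of all genes were called, and it called 20 without knockout pericyte replicate 1. It contains the contrast that chose the set and is given as a description.

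**Figure D3:**
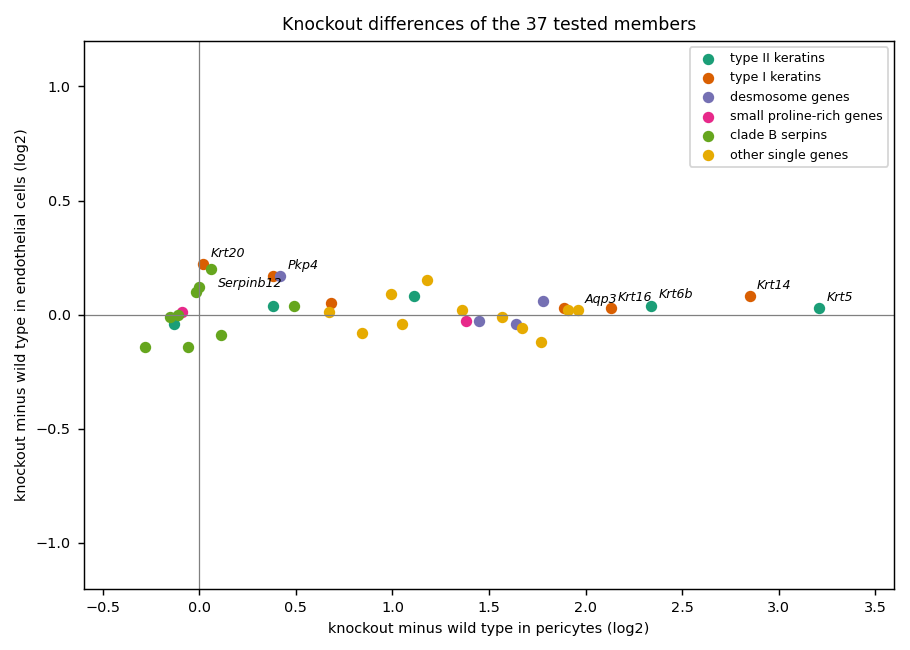
Knockout minus wild-type log2 difference of each tested member in pericytes (horizontal axis) and in endothelial cells (vertical axis), 1 point a gene, coloured by family. The pericyte differences run from -0.28 to 3.21 and the endothelial ones from -0.14 to 0.22.

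Wild-type pericytes and wild-type endothelial cells were compared next, a contrast that shares the 4 wild-type pericyte arrays with the one that chose the set. Of the 37 tested members 9 differed (24.3%), 5 higher and 4 lower in pericytes, where 36.2% of all genes differed, 17.1% higher and 19.1% lower. The arrays did not overlap for 10 members higher and 4 lower, where 16.3% and 17.2% of all genes parted. Of the 37, 22 were above the median on fewer than 4 arrays outside the knockout pericytes. Among them were Krt5, Krt17, Krt18, Krt79, Krtdap, Sbsn and Serpinb2 of the 10 that parted higher. Many of the 37 thus entered through arrays outside this contrast, and nothing is read from these shares. None of the 9 was among the 23 with a pericyte difference of at least 1 between genotypes. Among the 9, Serpinb2, Serpinb9b and Krt78 passed the filter through pericyte arrays alone, and Krt20 and Serpinb12 through endothelial arrays alone. The filter favours such members, so their calls are descriptions. Krt5 differed by 1.06 (adjusted p = 0.101 by limma) and Krt14 by 1.07 (adjusted p = 0.0898 by limma), and neither passed. The count was 7 to 13 when single arrays were left out.

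Serpinb2, the plasminogen activator inhibitor PAI-2, read 7.89, 7.12, 8.25 and 7.89 in wild-type and 8.01, 8.41, 8.42 and 8.29 in knockout pericytes, and 6.64 to 6.76 on all endothelial arrays. Every pericyte array was above every endothelial one, and the wild-type difference was 1.11 ± 0.16 (SE), or 2.15-fold (adjusted p = 2.43e-05 by limma). Krt10, given above for pericytes, read 6.88 to 7.38 on endothelial arrays, a wild-type difference of 0.88 ± 0.17 (SE) or 1.84-fold (adjusted p = 0.000473 by limma) with no overlap. Serpinb9b read 7.2, 7.64, 8.24 and 7.32 in wild-type and 7.44, 7.14, 7.46 and 7.76 in knockout pericytes against 6.68 to 6.86 in endothelial cells, a wild-type difference of 0.82 (adjusted p = 0.000748 by limma). The 3 genes were parted between the cell types in both genotypes.

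Krt78 and Sprr2a were higher in wild-type pericytes by less. Krt78 read 7.42, 6.78, 6.93 and 7.8 in wild-type pericytes and 6.77 to 6.79 in wild-type endothelial cells, a difference of 0.46 (adjusted p = 0.0275 by limma). Its groups overlapped, and the call was lost, with adjusted p from 0.0505 to 0.0957, without wild-type pericyte replicate 1 or 4, without any 1 of the wild-type endothelial arrays, and with only the groups compared in the fit. Sprr2a, on a probe of unchecked target, read 10.09 to 10.15 in wild-type pericytes and 9.77 to 9.99 in wild-type endothelial cells. The difference was 0.27 (adjusted p = 0.0261 by limma). That call was lost, with adjusted p from 0.0507 to 0.0766, without wild-type pericyte replicate 3 or 4, without wild-type endothelial replicate 1 or 4, and after quantile normalization.

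In the other direction, Pkp4, the plakophilin also known as p0071 and found outside desmosomes too, read 7.7, 7.8, 7.56 and 7.72 in wild-type pericytes and 8.78, 8.88, 8.93 and 8.53 in wild-type endothelial cells. The groups were well apart, at -1.09 ± 0.13 (SE), or 2.13-fold lower in pericytes (adjusted p = 3.04e-06 by limma). Its 3 other probes averaged 6.83 to 6.99 in wild-type pericytes and 6.98 to 7.36 in wild-type endothelial cells. Krt20 read 6.67 to 6.87 in wild-type pericytes against the endothelial values given above, a difference of -0.64 (adjusted p = 2.93e-06 by limma). Serpinb12 read 6.67 to 6.84 in wild-type pericytes and 7.29, 7.15, 7.67 and 6.95 in wild-type endothelial cells, a difference of -0.5 (adjusted p = 0.0028 by limma). Spint2, a Kunitz inhibitor like Spint1, read 6.95, 6.86, 7.79 and 7.35 in wild-type pericytes and 8.26, 8.1, 8.26 and 7.92 in wild-type endothelial cells, a difference of -0.9 (adjusted p = 0.0117 by limma). Spint2 then read 7.16, 8.66, 8.75 and 8.33 in knockout pericytes and 7.92 to 8.4 over both endothelial groups, with overlap between the knockout cell types.

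**Figure D4:**
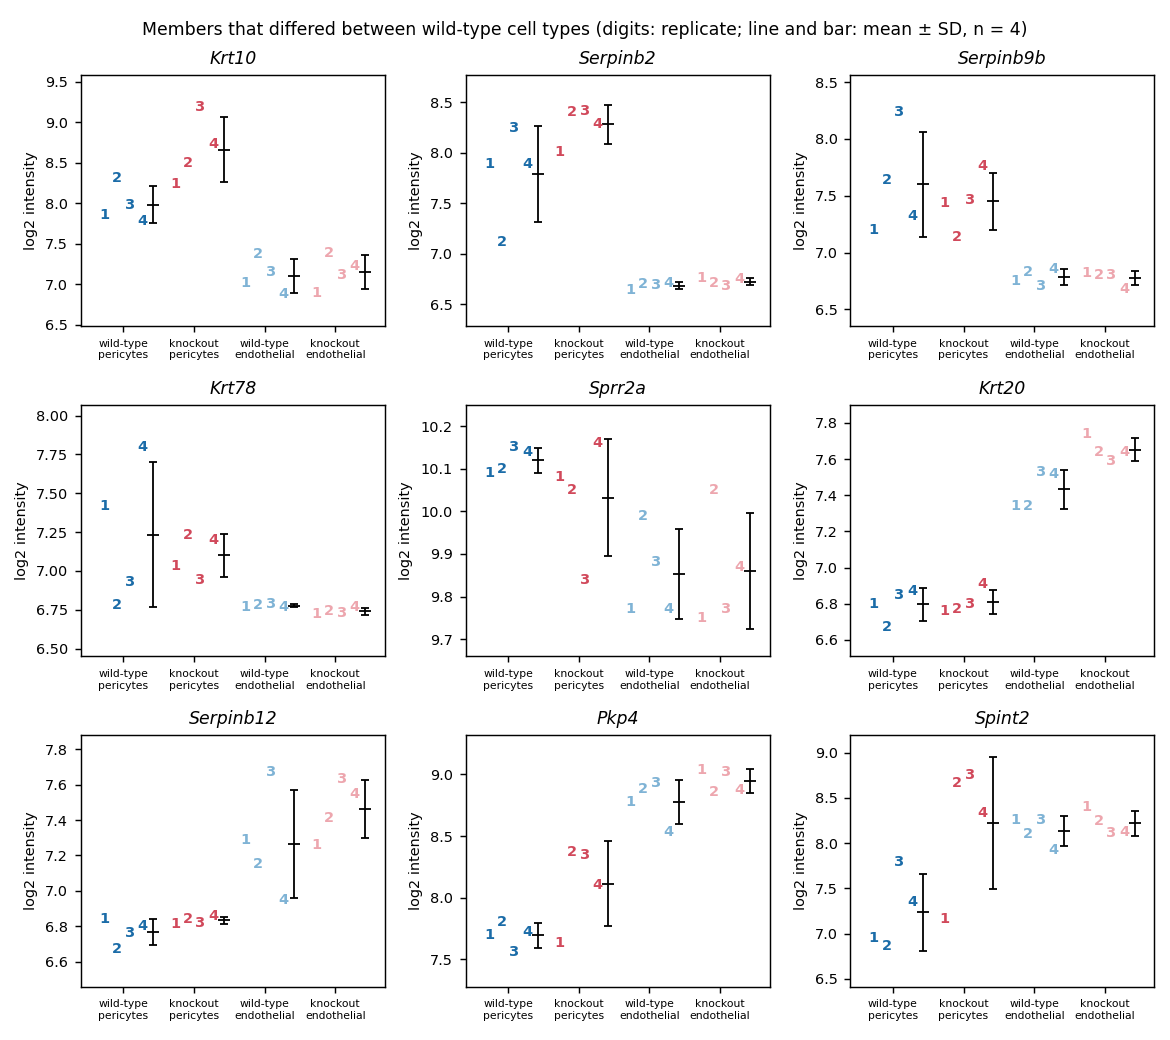
Log2 intensity of the 9 members that differed between wild-type pericytes and wild-type endothelial cells, by group, with the digit giving the replicate and the bar the mean ± SD (n = 4). The vertical axes differ between panels. Serpinb2, Krt10 and Serpinb9b are higher on all pericyte arrays than on any endothelial array, and Krt20 and Serpinb12 are lower.

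Knockout pericytes against knockout endothelial cells again share the arrays that chose the set, and are given as a description: 24 of 37 members were called higher in pericytes and 3 lower, where 17.4% and 18.5% of all genes were called, 35.9% in all. The arrays did not overlap for 20 members higher and 3 lower, where 17.3% and 19.4% of all genes parted. Krt20, Pkp4 and Serpinb12 were the 3 lower ones, as in the wild type.

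Other genes of epithelium, none of them members, gave the following in pericytes. Of 9 genes of hemidesmosomes and the epidermal basement membrane, 6 were tested and 2 were called higher by limma in knockout pericytes, where 0.307% of all genes were. This is the contrast that chose the set, on lists drawn up with its results known, so these counts too are descriptions and no independent support. Col17a1, the transmembrane collagen of hemidesmosomes, read 6.66, 6.67, 7.26 and 6.8 in wild-type and 6.98, 8.9, 9.09 and 8.64 in knockout pericytes, a difference of 1.55. It passed the filter on 4 arrays, 3 of them knockout pericytes. Col7a1, the anchoring fibril collagen, differed by 0.58. Of 8 epidermal lipid and barrier genes, 4 were tested and 2 were called higher, Fabp5 with a difference of 0.69 and Gltp with one of 0.61. These 4 calls, like those in the set, hung on single arrays. Without knockout pericyte replicate 2, 3 or 4, or wild-type pericyte replicate 1, 2 or 4, 0 genes of both lists were called, and 0 to 2 were called without 1 of the endothelial arrays.

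The other epithelial lists had 0 genes called by limma between the pericyte groups: 0 of 2 tested for the cornified envelope (2 at an unadjusted p under 0.05), 0 of 3 for transcription factors (1), 0 of 2 for adherens and tight junctions (1), 0 of 2 for epidermal proteases and inhibitors (0) and 0 of 2 for luminal mammary epithelium (2). Most of their genes did not enter the fit. The 2 luminal genes tested, Areg and Mfge8, differed in opposite directions, by 0.49 and -0.3. Mfge8 read 10.56 to 11.67 on all 16 arrays. Cdh1, E-cadherin, read 7.29, 7.01, 8.99 and 8.7 in wild-type and 8.15, 10.62, 10.37 and 10.19 in knockout pericytes, a difference of 1.83 that was not called. It was above every wild-type pericyte array on knockout replicates 2 to 4, and wild-type replicates 3 and 4 were both high. In endothelial cells Cdh1 read 6.81 to 7.07, except for 8.52 and 7.38 on knockout replicates 3 and 4. Ppl, a plakin of the cornified envelope, differed by 0.9 and was not called. Trp63, the regulator of stratified epithelium, shown after its values were seen, was untested and read 6.78, 6.78, 6.92 and 6.83 in wild-type and 6.97, 8.11, 8.28 and 7.46 in knockout pericytes. Lor, the main cornified envelope protein, read 6.72 to 6.83 on every pericyte array.

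Markers of other cells were set beside these values, and their part in the pericyte differences was not tested. Over 6 melanocyte and hair follicle genes, 0 of them tested, the mean was 6.8, 6.93, 6.9 and 6.94 in wild-type pericytes, 6.87, 8.43, 8.04 and 6.97 in knockout pericytes and 6.74 to 6.8 in endothelial cells. Dct, an enzyme of pigment synthesis, read 9.49 and 8.86 and Mlana 8.76 and 8.21 on knockout replicates 2 and 3, against 7.29 and 6.88 on replicate 4. These genes were picked after their values were seen. On replicates 2 and 3, Tyrp1 read 8.42 and 8.1 and Si 9.7 and 9.02. Tyr read 7.37 and 7.11 there, and Lgr5, the hair follicle gene of the list, 6.83 and 6.96. Knockout replicate 4 was thus low for pigment cell genes while the mean of the 23 members on it was 8.94, against 9.44 and 9.53 on replicates 2 and 3 and 7.27 on replicate 1. Over 8 mast cell genes the mean was 6.92, 7.72, 9.46 and 10.12 in wild-type and 7.12, 8.94, 9.78 and 8.92 in knockout pericytes, and 0 of 8 differed (0 at an unadjusted p under 0.05). Wild-type replicate 4 was highest for mast cell genes, with a mean of 7.12 for the 23 members. Among 6 granulocyte and macrophage genes 2 were tested and 0 called (2 at an unadjusted p under 0.05), S100a9 reading 6.75, 7.05, 7.29 and 7.14 against 6.75, 9.1, 8.88 and 9.65. Lyzs, the other one tested, ran the opposite way, at 6.8, 7.62, 7.64 and 7.1 against 6.96, 6.86, 7.04 and 6.88. S100a9 was lowest of the knockout pericytes on replicate 1, like the 23 members, and so were the mast cell mean and Cd3e. Keratinocytes can also make S100a9, and its source was not tested. Of the T cell genes 0 of 3 tested were called (0 at an unadjusted p under 0.05), with Cd3e at 7.7, 8.18, 9.0 and 8.76 against 8.03, 9.69, 9.46 and 8.82, a difference of 0.59. Cd2 and Thy1 differed by -0.15 and -0.08. Cd2 read only 6.92 to 7.37 in pericytes, and Thy1 read 11.2 to 11.37 on every pericyte array, so its level is not a measure of T cells here.

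**Figure D5:**
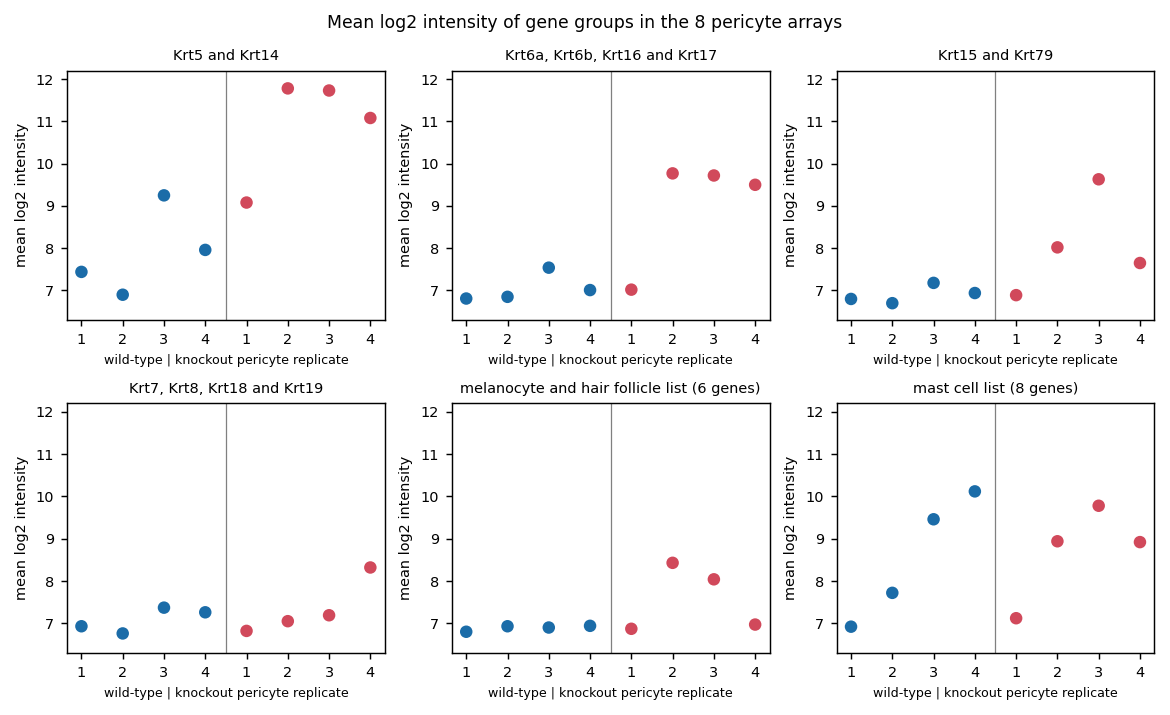
Mean log2 intensity (vertical axis) of 4 groups of keratins and of the melanocyte and mast cell lists on each of the 8 pericyte arrays (horizontal axis, wild-type replicates left of the line and knockout replicates right), 1 point an array. Krt5 and Krt14 reach 11.78, 11.73 and 11.08 on knockout replicates 2 to 4, the Krt15 and Krt79 mean peaks at 9.63 on replicate 3 and that of Krt7, Krt8, Krt18 and Krt19 at 8.32 on replicate 4; the keratin groups were formed after their values were seen.

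Apart from Cd248, the deleted gene, which is in none of the lists, no listed marker of the sorted cells passed the test between pericyte groups. Of 10 pericyte genes 0 were called (0 at an unadjusted p under 0.05), and their mean was 9.45, 8.52, 8.68 and 9.84 in wild-type and 8.98, 9.08, 8.85 and 9.12 in knockout pericytes. Of 10 endothelial genes 0 were called (0 at an unadjusted p under 0.05), and of 8 tested mesenchymal genes 0 (1 at an unadjusted p under 0.05). In endothelial cells, 0 of the 62 distinct genes tested from all these lists differed between genotypes (limma, 0 at an unadjusted p under 0.05).

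Between wild-type cell types, genes of these lists were called in both directions by limma. In pericytes 0 were higher and 3 lower of 6 hemidesmosome genes, 2 and 0 of 3 transcription factors, 1 and 0 of 2 junction genes, 2 and 0 of 2 proteases and inhibitors, 0 and 1 of 4 lipid genes and 2 and 0 of 2 luminal genes. Neither of the 2 cornified envelope genes was called (0 at an unadjusted p under 0.05). Slpi, a secreted leukocyte protease inhibitor of epithelia, was higher in pericytes by 1.17 (adjusted p = 3.69e-05 by limma), Klf4, a transcription factor of epidermal differentiation and of many other cells, by 1.06 (adjusted p = 0.00525 by limma), and Hopx by 1.01 (adjusted p = 0.00214 by limma). Itga6, the laminin-binding integrin of hemidesmosomes and of endothelium, was lower in pericytes by -1.81 (adjusted p = 8.58e-07 by limma), and Dst and Cd151 were lower by -0.7 and -0.69 (adjusted p = 0.000143 and 0.00075 by limma). Of all tested genes 17.1% were higher and 19.1% lower. Slpi, Klk8, Hopx, Pvrl1 and Areg were below the median on every endothelial array. They passed the filter through pericyte arrays alone, which the filter favours, so their calls are descriptions.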

How the data were processed

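Per the labels' protocols, the kit that amplified the RNA of sorted cells was Ovation Pico WTA System V2, and each MouseWG-6 v2.0 BeadChip array received 1.6 µg of cRNA. Values are on a log2 scale as the authors deposited them, and the submitters' processing notes name GenomeStudio and lumi; no source used here states the background correction, transform or normalization settings. The deposited text table and the repository value table differed by at most 5e-09. Arrays of 1 group correlated at 0.916 to 0.979, and the number of arrays limits the precision. Values were used without further scaling.

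Probes above the median of their own array on at least 4 of 16 arrays were kept (14632 of 24040). The kept probe with the highest mean stood for a gene, and 16 members had several probes. A group-means model over 10426 genes was fitted with limma 3.58.1 (R 4.3.3) with 12 residual and 5.58 prior degrees of freedom, and p-values were adjusted by Benjamini-Hochberg over all genes, with a threshold of 0.05. The procedure was tested on simulated data. Summaries used pandas 2.3.3. Alternatives covered the filter, probe choice, quantile normalization, table, replicate block, array weights, variance model, arrays in the fit and each array left out.

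Symbols are the array's own. Of the 65, 61 were matched to RefSeq by accession, 2 by symbol, 1 by synonym and 1 not. The members and lists were chosen with earlier results of these data known. Members are given array by array when 2 group means lie at least 1 log2 apart or when they passed a test outside the contrast that chose them, and list genes when they rank among the 4 with the highest mean or passed a test. Trp63, Lor and the melanocyte and hair follicle genes named lie outside this rule. 1 gene of the lists is not reported here. Equally numbered arrays are not paired by the labels.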

Additional observations from a re-analysis of the deposited data

Results flagged for a closer look

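In the knockout pericytes, replicate 1 stood far below the other 3 arrays for 7 members. It read 7.22 for Aqp3 (the others 9.5 to 9.94), 7.08 for Krt16 (9.82 to 10.05), 6.86 for Krt6a (8.68 to 8.96) and 7.16 for Krt6b (9.90 to 10.30). It read 7.26 for Krtdap (9.44 to 9.73), 6.81 for Prom2 (8.06 to 8.28) and 6.79 for Sprr1b (8.62 to 8.95). Wild-type pericyte replicate 3 stood above its group for Sprr1b, at 7.30 (the others 6.71 to 6.75).

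In endothelial cells the gaps were small. Knockout replicate 3 was highest for Perp at 6.97 (the others 6.79 to 6.82) and for Trim29 at 6.82 (6.76 to 6.77), and knockout replicate 4 lowest for Serpinb9b at 6.68 (6.80 to 6.82). Wild-type replicate 3 was highest for Pkp3 at 7.41 (7.0 to 7.03), and wild-type replicate 4 lowest for Sprr1a at 6.87 (6.97 to 6.98). These 13 came from 132 groups of 4 arrays, and chance alone marks about 1 group in 20.

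For Tcfap2c and Trim29, every knockout pericyte array lay above the wild-type pericyte mean and every knockout endothelial array below the wild-type endothelial mean. The differences were 1.77 and -0.12 for Tcfap2c and 1.67 and -0.06 for Trim29, and the endothelial ones were small beside their 95% intervals, -0.9 to 0.65 and -0.71 to 0.6. Whether the effects differ between the cell types was not tested on arrays outside the choice of members.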

How the results depend on the processing

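The count of members called between knockout and wild-type pericytes, 13, was 21 with array weights, 2 without the filter, 2 with the stricter filter at the 75th percentile, 2 with a trended robust variance and 0 with only the groups compared in the fit, and it ran from 0 to 23 with single arrays left out. The cause was not tested, except that the stricter filter kept fewer members. The difference between the knockout effects called 0 members, 2 with array weights and from 0 to 20 with single arrays left out. Knockout pericytes against knockout endothelial cells called 27, but 41 without the filter, which tests all 65, and 7 with the stricter one. The wild-type cell type contrast called 9, and 5 with the stricter filter. The endothelial knockout contrast called 0 under all 25 alternatives. With the replicate number as a replicate block, the counts were 14, 0, 0, 10 and 28 for pericytes, endothelial cells, their difference, wild-type and knockout cell types; equally numbered arrays correlated at -0.18 to 0.448 in their deviations from the group means, replicate 1 at 0.064 to 0.448, and since not every pair exceeded 0.1 the arrays were not treated as paired. All 681 alternative values of the pericyte differences of 28 named members moved by less than 1 SD between replicates. Many of these settings, such as leaving out an endothelial array, cannot change a pericyte difference, and Krt14 then stayed at 2.85. With only the groups compared in the fit, the adjusted p was 0.557 for Krt5 and 0.616 for Krt14 by limma. Of 221 alternative values for the 9 members called between wild-type cell types, 209 kept their call, 12 lost it (Krt78 and Sprr2a) and 0 reversed. Of 1050 alternative counts for the lists, 79 moved by over 1.5 times. No slide is given, so no slide block was run, and the difference of effects needs all 4 groups. Signals near 6.7 to 7.0 are at the bottom of the scale, which limits folds from there.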
